A study of Rattus norvegicus with 9 samples.

Results

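Interferon-stimulated genes are genes whose transcription is switched on by interferons, and 43 rat genes of this kind were looked up by name on the arrays. They were gathered around Ifit1, which had been picked because it was higher in BPH than in sham prostates, so that the values of Ifit1 are described here without a test. For 39 of the 43 genes at least 1 probe was found through its RefSeq accession, out of 26905 genes or unnamed probes on the array. No probe matched Rigi, Xaf1, Herc6 or Zbp1. Of the 39 genes, 38 were well above background on at least 3 of 9 arrays and 35 on all 9 arrays, while Oasl passed on 1 array only. The 39 genes had 45 probes, and a gene with several probes is given by its brightest passing probe.

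Gene expression had been measured in whole prostates of male Sprague Dawley rats, 6 weeks old at the start, with Agilent one-colour rat arrays, 3 arrays in each of 3 groups. Sham rats had a sham operation, corn oil injections and oral vehicle. BPH rats were castrated, received dihydrotestosterone (3 mg/kg daily, subcutaneously) for 4 weeks and oral vehicle, which is the androgen-induced model of benign prostatic hyperplasia. BPH+ghrelin rats were castrated, received the same dihydrotestosterone for 4 weeks and, in the last 2 weeks, oral rat ghrelin (20 nmol/kg daily). BPH and sham therefore differ in castration and in androgen supply at once, whereas BPH+ghrelin and BPH differ in ghrelin. The group sizes stated for the arrays equal the number of arrays per group, and rats are named as the unit for BPH and BPH+ghrelin. Values are log2 of the quantile normalized signal.

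The raw signal (75th percentile) ran from 327 in sham 2 to 1065 in BPH 1, and 61.4% of probes were well above background in sham 2, against at least 69.5% on the other arrays. By the scan times in the file headers, BPH 1 to 3 and BPH+ghrelin 1 shared a scan, BPH+ghrelin 2 and 3 shared another with sham 1 and 2, and sham 3 was scanned apart, so BPH and sham never share a scan. The sources used here name no batches, and every value with scan as a block or within a scan rests on these times. For most of 22568 probes the same array of a group held the middle value: sham 3 for 72.7%, BPH 2 for 70.5% and BPH+ghrelin 2 for 68.2%, where an even split would give each array the same share. SEs and p-values treat the 3 arrays of every group as independent, which was not tested. The prostate genes Pbsn and Hoxb13 were above background on all 9 arrays. Summed signal of 5 seminal vesicle genes was 90188 to 157597 in sham, 713 to 28272 in BPH and 545 to 3881 in BPH+ghrelin prostates.

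Interferons are secreted by cells that sense viral or other nucleic acids. Type I interferons bind the receptor of Ifnar1 and Ifnar2, and the kinases Jak1 and Tyk2 then activate Stat2, which joins Irf9 in a complex that binds the interferon-stimulated response element (ISRE) of target promoters. Interferon-gamma acts through Ifngr1 and Ifngr2 and on promoters with GAS elements. The targets include proteins that bind foreign RNA, degrade RNA, modify proteins or hold virus particles at membranes, and also brakes of the pathway such as Usp18. In the prostate, as in other tissues, resident and infiltrating leukocytes and epithelial cells can express them.

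Promoter sequences are shown to place the letters of the ISRE in these genes. The genes were chosen as interferon-stimulated, and the ISRE is an element of such promoters. Its share among them therefore describes the choice of genes, not the arrays. Of the 39 genes with a probe, 31 were found in the RefSeq promoter table (assembly GRCr8, 250 bases before to 50 bases after the gene start). Not found were Ifit1, Ifit2, Isg15, Mx2, Oas2, Usp18, Dhx58 and Ifitm1. A pair of GAAA repeats with 2 bases of any kind between them, the core of an ISRE, occurred on either strand in 20 of these 31 promoters (64.5%) and in 1034 of all 27457 promoters of this length (3.77%). The letters TTCNNNGAA of a GAS element, searched in the same way, occurred in 11 of 31 (35.5%) and in 2382 of 27457 (8.68%), and a match is a description of letters, not a site. Below are the 150 bases before the gene start, 5′ to 3′ on the strand of the gene, for genes whose values separate groups in the comparisons that follow, with the ISRE letters in capitals.
Ifit3 (chr1:241527176-241527325, plus strand): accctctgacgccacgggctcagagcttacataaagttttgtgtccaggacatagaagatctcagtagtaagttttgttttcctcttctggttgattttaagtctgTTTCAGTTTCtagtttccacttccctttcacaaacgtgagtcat
Irf7 (chr1:205800024-205800173, minus strand): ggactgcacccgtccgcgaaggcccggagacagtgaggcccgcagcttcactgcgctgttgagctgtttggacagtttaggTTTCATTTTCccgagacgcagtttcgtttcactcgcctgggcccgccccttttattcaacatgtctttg
Irgm (chr10:33742579-33742728, minus strand): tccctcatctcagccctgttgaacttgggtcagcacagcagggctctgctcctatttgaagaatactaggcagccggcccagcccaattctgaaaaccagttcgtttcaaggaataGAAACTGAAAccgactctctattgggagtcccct
Oas1a (chr12:41330316-41330465, plus strand): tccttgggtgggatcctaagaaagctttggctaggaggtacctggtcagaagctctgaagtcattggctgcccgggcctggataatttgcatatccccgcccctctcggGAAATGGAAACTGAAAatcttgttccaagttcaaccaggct
Oas1b (chr12:41395853-41396002, minus strand): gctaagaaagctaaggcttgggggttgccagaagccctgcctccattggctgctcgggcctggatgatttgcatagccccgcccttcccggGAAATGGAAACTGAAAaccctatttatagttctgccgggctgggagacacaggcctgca
Isg20 (chr1:142239909-142240058, plus strand): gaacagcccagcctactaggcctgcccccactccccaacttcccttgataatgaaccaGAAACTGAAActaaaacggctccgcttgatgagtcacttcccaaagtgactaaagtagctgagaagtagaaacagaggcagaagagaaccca
Bst2 (chr16:18254968-18255117, minus strand): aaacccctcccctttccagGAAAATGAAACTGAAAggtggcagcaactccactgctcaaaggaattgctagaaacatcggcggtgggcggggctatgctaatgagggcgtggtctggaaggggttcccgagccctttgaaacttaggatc
Ifi35 (chr10:86881120-86881269, plus strand): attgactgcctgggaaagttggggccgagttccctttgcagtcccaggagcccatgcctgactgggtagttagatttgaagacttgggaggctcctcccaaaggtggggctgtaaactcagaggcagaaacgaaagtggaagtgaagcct
Ifit3, Irf7 and Irgm, which were lower after ghrelin, and Isg20 and Oas1a, which were higher, hold the letters, starting between -92 and -34 relative to the gene start. Irf1 and Ifi47, also lower after ghrelin without overlap, hold none in their windows. In Oas1a and Oas1b, neighbouring copies of the same gene family, 2 overlapping matches form the same run of 16 letters, while Ifi35 holds no match in this window. Across the comparison of BPH+ghrelin with BPH, the median log2 difference was -0.22 for 20 tested genes with a match and -0.19 for 10 tested genes without. For BPH against sham these medians were -0.08 and 0.07, and for BPH+ghrelin against sham -0.20 and -0.29.

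Ifit1, the gene the group was gathered around, codes for a protein that binds foreign RNA at its 5′ end. Its normalized log2 signal was 0.66, 1.84 and 0.61 in sham, 5.34, 4.86 and 4.47 in BPH, and 3.31, 2.23 and 1.47 in BPH+ghrelin prostates. The 3 BPH arrays stood above the 6 others, and BPH+ghrelin 1 above the rest. Ifit1 was dim: raw signal was 1.59 to 1.96 in sham, 24.9 to 60.4 in BPH and 2.64 to 10.5 in BPH+ghrelin prostates, and it was well above background on 0 of 3 sham, 3 of 3 BPH and 1 of 3 BPH+ghrelin arrays. Against the background limit of the sham arrays it was at least 3.46-fold higher in BPH, and BPH+ghrelin minus BPH was -2.55 on the log2 scale, with 2 of 3 BPH+ghrelin arrays not well above background. With normexp background correction the log2 difference was 0.47 for BPH minus sham and -0.37 for BPH+ghrelin minus BPH, so the size of both depends on how dim signals are treated. These values chose the gene or share their BPH arrays with those that did, so no test is given.

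Of the other 37 genes, Bst2 alone also had all 3 BPH arrays above the 6 others. Between BPH and sham prostates most values overlapped. In BPH+ghrelin prostates 29 of 37 were lower than in BPH and 30 of 37 lower than in sham, where 48.3% and 45.5% of all genes were, among them Ifit2, Ifit3, Irf7, Irgm and Usp18. None passed an adjusted p of 0.05 (limma), by which 0.987% and 3.3% of all genes were called lower. Between single BPH prostates the same genes differed by up to 1.93 on the log2 scale. The comparisons share arrays, so they are given side by side.

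**Figure D1:**
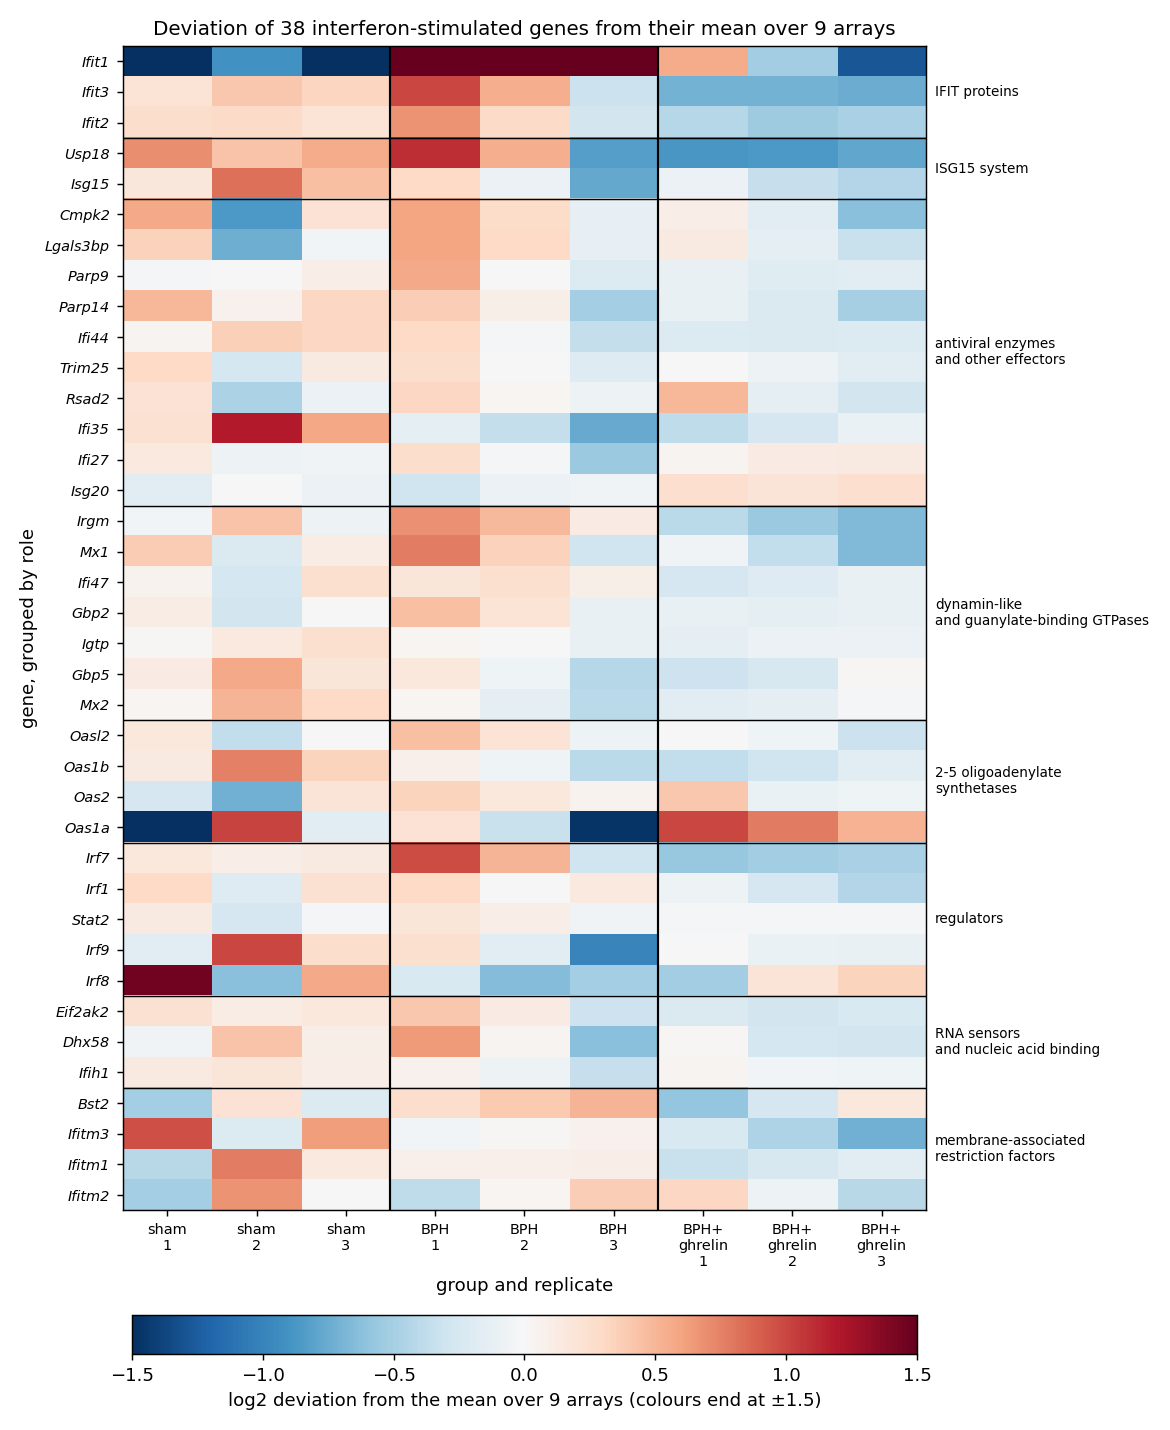
Log2 deviation of 38 genes (rows, grouped by role) from their mean over 9 arrays (columns, group and replicate); red is above and blue below the mean, and colours end at ±1.5. Ifit1 is the only row that is deep red on all 3 BPH arrays. In most other rows BPH 1 is red and BPH 3 blue, and the BPH+ghrelin arrays are mostly pale blue.

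BPH was compared with sham to ask what castration with dihydrotestosterone did to these genes. Of 37 genes with a value, Ifit1 left out, 15 were higher and 22 lower in BPH, where 53.7% of 19552 genes were higher and 46.3% lower. The median difference was -0.06 on the log2 scale (-0.05 with Ifit1), against 0.04 over all genes. None of 37 genes (Ifit1 left out) had an adjusted p under 0.05 (limma), a call that 2.16% of all genes reached upwards and 2.18% downwards. At an unadjusted p under 0.05, 1 was higher (Bst2) and 4 lower (Ifi35, Isg15, Mx2 and Oas1b), where 14.4% and 12% of all genes were. No overlap between the arrays was seen for Bst2, which was higher, and for 4 genes that were lower, Ifi35, Ifih1, Mx2 and Oas1b. Over all genes this held for 17.1% upwards and 14.2% downwards.

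Bst2, also called tetherin, holds budding virus particles at the cell surface. Its log2 level was 8.50, 9.23 and 8.80 in sham, 9.27, 9.41 and 9.52 in BPH, and 8.43, 8.76 and 9.17 in BPH+ghrelin prostates. Sham 2 came within 0.04 of the lowest BPH array. The difference between BPH and sham was 0.56 ± 0.24 (SE, 3 arrays per group), with an adjusted p of 0.18 (limma), and 1.07 with scan as a block (adjusted p 0.71). Bst2 was, after Ifit1, the only gene of the group with all BPH arrays above all sham arrays.

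Ifi35, an interferon-induced leucine zipper protein, had the largest difference downwards. Its level was 7.74, 8.70 and 8.09 in sham, 7.38, 7.15 and 6.76 in BPH, and 7.14, 7.26 and 7.41 in BPH+ghrelin prostates. All 6 castrated prostates lay below all sham prostates. BPH minus sham was -1.08 ± 0.26 (SE), with an adjusted p of 0.056, and BPH+ghrelin minus sham was -0.91 ± 0.26, with an adjusted p of 0.077 (limma). Without sham 1 both passed, with adjusted p-values of 0.022 and 0.037, in fits that called 8.06% and 4.55% of all genes lower, and over 16 alternatives the adjusted p ran from 0.022 to 0.86 for BPH and from 0.037 to 0.37 for BPH+ghrelin.

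Oas1b, Mx2 and Ifih1 separated BPH from sham by less. Oas1b is a member of the 2-5 oligoadenylate synthetase family, whose product activates an RNA-degrading enzyme. It had log2 levels of 14.02, 14.64 and 14.22 in sham, 13.96, 13.82 and 13.48 in BPH, and 13.51, 13.59 and 13.73 in BPH+ghrelin prostates. The BPH difference was -0.53 ± 0.19 (adjusted p 0.14, limma), and BPH 1 lay 0.06 below the lowest sham array. Mx2, a dynamin-like GTPase that blocks viruses, had 13.95, 14.42 and 14.21 in sham, 13.94, 13.77 and 13.52 in BPH, and 13.74, 13.77 and 13.90 in BPH+ghrelin prostates. Here the gap between the groups was 0.01, and the difference was -0.45 ± 0.16 (adjusted p 0.14). Ifih1, a sensor of double-stranded RNA, had 11.999, 12.05 and 11.97 in sham, 11.94, 11.79 and 11.53 in BPH, and 11.91, 11.83 and 11.80 in BPH+ghrelin prostates, a BPH difference of -0.26 ± 0.13 (adjusted p 0.25). With scaling to the 75th percentile the 3 differences were -0.96, -0.87 and -0.41, and that of Ifih1 was -0.15 without BPH 3.

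The rest of the group showed overlapping arrays in this comparison. The other members of the Ifit family, Ifit2 and Ifit3, differed between BPH and sham by -0.02 ± 0.22 and 0.10 ± 0.29. The regulators Irf1, Irf7 and Stat2 had differences of 0.04, 0.27 and 0.12, and Irf8 and Irf9 of -0.93 ± 0.48 and -0.68 ± 0.36. Isg15, a ubiquitin-like protein that is attached to other proteins, differed by -0.67 ± 0.28 (adjusted p 0.18, limma). The median over the 38 genes rested on BPH 3: without it, it was 0.14, the opposite sign. Because no scan holds both groups, scan and group cannot be told apart here except through BPH+ghrelin.

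**Figure D2:**
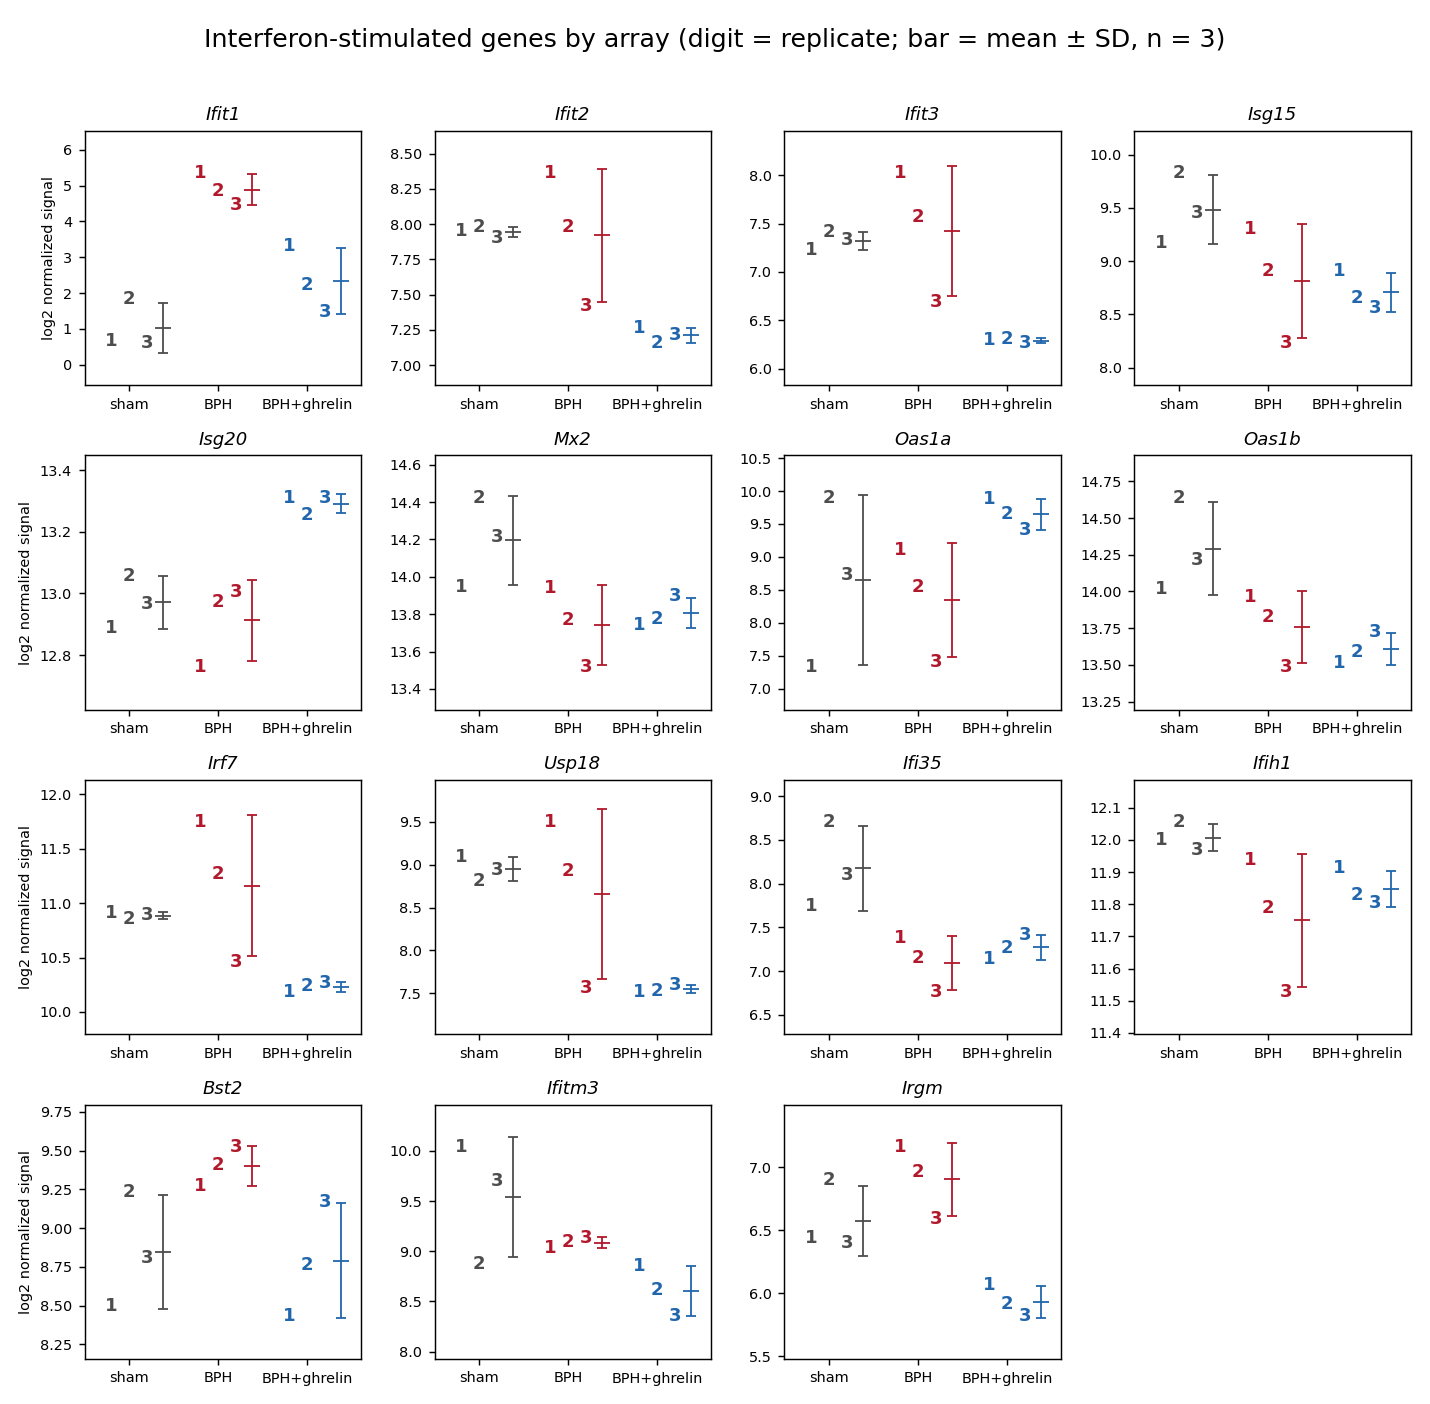
Log2 normalized signal (y axis, one scale per panel) of Ifit1 and the 14 other genes named by rule, by group; digits are the replicate numbers of the arrays, and the bars show mean ± SD (n = 3). In Ifit2, Ifit3, Irf7 and Usp18 the 3 BPH arrays spread above and below or onto the sham arrays, while the 3 BPH+ghrelin arrays sit close together below sham. Ifit1 was above background only on the 3 BPH arrays and 1 BPH+ghrelin array.

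BPH+ghrelin was compared with BPH to ask what oral ghrelin did on top of castration and dihydrotestosterone. Of 37 genes, Ifit1 left out, 29 were lower and 8 higher with ghrelin, where 48.3% of 19749 genes were lower and 51.7% higher. The median was -0.19 (-0.22 with Ifit1), against 0.02 over all genes. No overlap between the arrays was seen for 9 of the 37 that were lower, Ifit2, Ifit3, Irf1, Irf7, Irgm, Ifi47, Bst2, Ifitm1 and Ifitm3, and for 2 that were higher, Isg20 and Oas1a, against 19.3% and 19.8% of all genes. Not 1 of 37 genes passed an adjusted p of 0.05 (limma), a mark at which 0.987% of all genes were called lower and 0.496% higher. At an unadjusted p under 0.05, 8 were lower and 1 was higher, and these shares were 10.5% and 10.7% over all genes.

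Ifit2 and Ifit3, whose proteins act in complexes with other Ifit proteins, had lower values on every BPH+ghrelin array than on any BPH array. Ifit3 had log2 levels of 7.22, 7.41 and 7.33 in sham, 8.02, 7.56 and 6.69 in BPH, and 6.30, 6.30 and 6.27 in BPH+ghrelin prostates. BPH 1 and 2 lay above and BPH 3 below all sham arrays, and the BPH+ghrelin arrays lay below all others within 0.04 of each other. The ghrelin difference from BPH was -1.13 ± 0.29 (2.19-fold lower, adjusted p 0.094, limma). Ifit2 had 7.95, 7.98 and 7.90 in sham, 8.36, 7.98 and 7.42 in BPH, and 7.26, 7.16 and 7.21 in BPH+ghrelin prostates. Its ghrelin difference was -0.71 ± 0.22 (1.63-fold lower, adjusted p 0.13), again with BPH 3 nearest to the ghrelin arrays.

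Irf7, the transcription factor that drives the late wave of type I interferon genes, showed the same arrangement of arrays. Its level was 10.91, 10.85 and 10.89 in sham, 11.74, 11.27 and 10.46 in BPH, and 10.18, 10.24 and 10.27 in BPH+ghrelin prostates. The sham arrays were within 0.06 of each other and the BPH arrays 1.28 apart. BPH+ghrelin minus BPH was -0.93 ± 0.28 (1.90-fold lower, adjusted p 0.13, limma). Irf1, another interferon regulatory factor, differed by -0.40 ± 0.17 (adjusted p 0.23), and its second probe by -0.50, while Stat2 differed by -0.09 ± 0.13, Irf9 by 0.24 ± 0.36 and Irf8 by 0.46 ± 0.48.

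Usp18 removes Isg15 from proteins and restrains the type I interferon receptor. Its level was 9.09, 8.81 and 8.94 in sham, 9.49, 8.93 and 7.56 in BPH, and 7.52, 7.53 and 7.60 in BPH+ghrelin prostates. BPH 3 lay among the ghrelin arrays and BPH 1 above all sham arrays, the widest spread of any of the 38 genes between BPH arrays. The difference from BPH was -1.11 ± 0.42 (adjusted p 0.19, limma), and a second probe of the gene gave -1.08. Isg15 itself had 9.17, 9.82 and 9.45 in sham, 9.30, 8.91 and 8.23 in BPH, and 8.91, 8.65 and 8.56 in BPH+ghrelin prostates, and with -0.11 ± 0.28 (adjusted p 0.86) it did not follow Usp18 in this comparison.

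Irgm, a GTPase of the immunity-related family that acts on vacuoles of intracellular pathogens, came closest to the threshold in this comparison. Its level was 6.44, 6.90 and 6.40 in sham, 7.16, 6.96 and 6.59 in BPH, and 6.07, 5.92 and 5.82 in BPH+ghrelin prostates. All ghrelin arrays were below all sham and BPH arrays. The ghrelin difference was -0.97 ± 0.20 (1.96-fold lower, adjusted p 0.057, limma), and over 16 alternatives the adjusted p ran from 0.029, with the 6 arrays compared alone (6.13% of all genes called lower), to 0.44. With normexp background correction the difference of Irgm was -0.49 and that of Ifit3 -0.69. Of the other GTPases, Ifi47 differed by -0.36 ± 0.15, Mx1 by -0.63 ± 0.29, Gbp2 by -0.30 ± 0.17 and Igtp by -0.07 ± 0.11. Gbp5 differed by -0.07 ± 0.20 with its brightest probe and by -1.002 with a second probe that was above background on 4 of 9 arrays. Between BPH and sham the 2 probes gave -0.40 and 0.95, so they disagree in both comparisons.

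Among the restriction factors at membranes, Bst2 differed by -0.61 ± 0.24 (adjusted p 0.20), and BPH+ghrelin minus sham was -0.06 ± 0.24. Ifitm1, Ifitm2 and Ifitm3, which hinder the entry of viruses, differed by -0.34 ± 0.26, -0.06 ± 0.33 and -0.48 ± 0.28. Ifitm3 had 10.04, 8.88 and 9.70 in sham, 9.03, 9.09 and 9.14 in BPH, and 8.85, 8.61 and 8.35 in BPH+ghrelin prostates. Sham 2 lay apart from sham 1 and 3 for this gene, and its BPH arrays were the closest together.

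Oas1a and Isg20 were higher on all 3 BPH+ghrelin arrays than on any BPH array. Oas1a, another oligoadenylate synthetase, had 7.32, 9.90 and 8.72 in sham, 9.10, 8.54 and 7.41 in BPH, and 9.88, 9.66 and 9.41 in BPH+ghrelin prostates. The sham arrays alone spanned the whole range of both other groups. The difference from BPH was 1.298 ± 0.64 (2.46-fold higher, adjusted p 0.29, limma) and 0.83 without BPH 3, while Oas1b, Oas2 and Oasl2 differed by -0.15, -0.10 and -0.32. Oas1a and Oas1b are close relatives, and whether their probes share signal was not tested. Isg20, an exonuclease that degrades RNA, had 12.89, 13.06 and 12.97 in sham, 12.76, 12.97 and 13.00 in BPH, and 13.31, 13.26 and 13.31 in BPH+ghrelin prostates. It was above both other groups on all 3 ghrelin arrays, by 0.38 ± 0.12 over BPH (adjusted p 0.13; 0.72 with scaling to the 75th percentile, adjusted p 0.063) and by 0.32 ± 0.12 over sham (adjusted p 0.14).

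The brightest probes of the remaining effectors differed between BPH+ghrelin and BPH by values from -0.48 ± 0.38 for Cmpk2 to 0.21 ± 0.20 for Ifi27, with Rsad2, the antiviral enzyme viperin, at -0.06 ± 0.25. Parp14 differed by -0.26 with its brightest probe and by -1.04 with a second probe that was above background on 6 of 9 arrays, and between BPH and sham by -0.31 and 0.60, so its probes disagree. For the RNA sensors Ifih1, Dhx58 and Eif2ak2, differences were 0.10 ± 0.13, -0.19 ± 0.30 and -0.32 ± 0.18. BPH 3 decided how many genes passed. Without it, 5 of 37 genes were called lower with ghrelin, Ifit2, Ifit3, Irf7, Irgm and Usp18, with adjusted p-values of 0.022 to 0.044 (limma) and differences from -0.96 (Ifit2) to -1.66 (Usp18), where 1.26% of all genes were called lower. Over 16 alternatives the highest adjusted p was 0.52 for Ifit3, 0.56 for Irf7, 0.62 for Ifit2 and 0.44 for Irgm. Without BPH 1 none passed and the median was -0.06. Within the scan that holds both groups, BPH+ghrelin 1 lay below all BPH arrays for 11 of 37 genes, where 34.1% of all genes did, and its median difference from the BPH mean was -0.15, against -0.0044 over all genes.

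**Figure D3:**
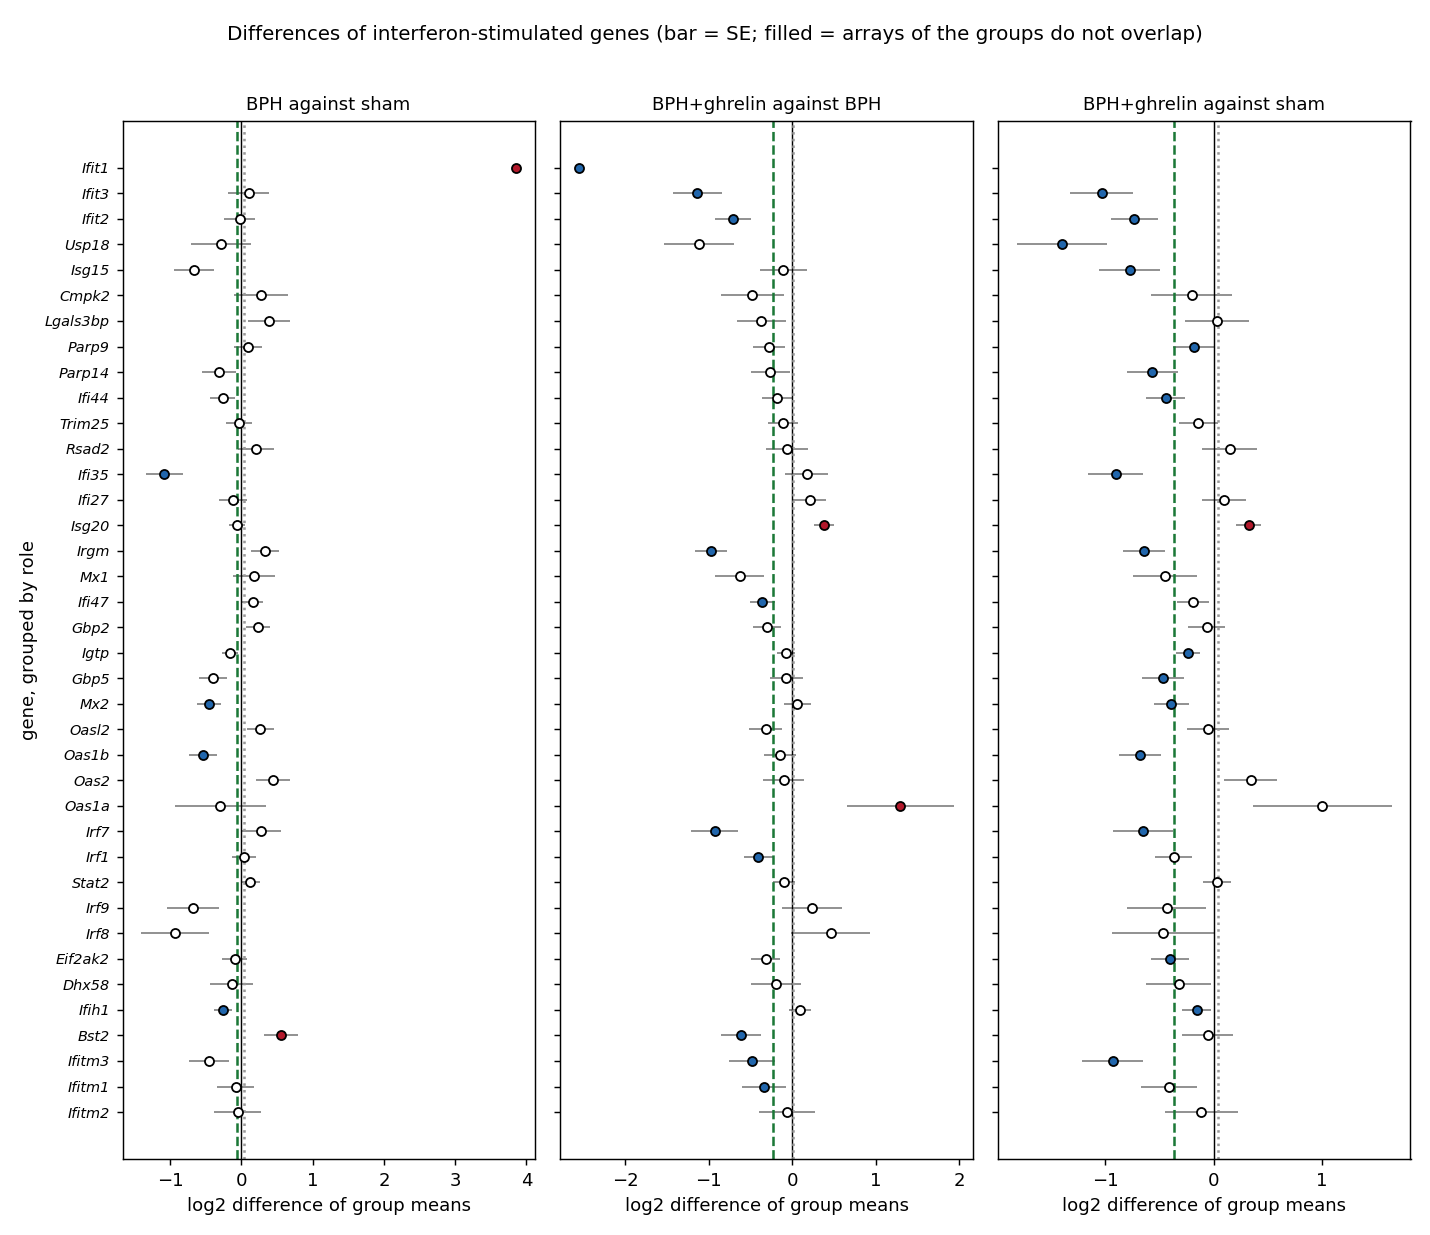
Difference of group means of log2 signal (x axis) for each gene (y axis, grouped by role) in the 3 comparisons; bars are SE (none for Ifit1, which has no test), and filled points mark genes whose arrays do not overlap, red for higher and blue for lower. The dashed green line is the median of the group and the dotted grey line the median of all genes tested. The dashed line, which includes Ifit1 in the first 2 comparisons, lies near 0 for BPH against sham, at -0.22 for BPH+ghrelin against BPH and at -0.37 for BPH+ghrelin against sham.

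BPH+ghrelin was also set against sham. Of 37 genes with a value, 30 were lower and 7 higher, where 45.5% of 19197 genes were lower and 54.4% higher. The median difference was -0.37, against 0.04 over all genes. The arrays did not overlap for 17 genes that were lower and for 1 that was higher (Isg20), against 12.8% and 17.5% of all genes. None had an adjusted p under 0.05 (limma), which 3.3% of all genes reached downwards and 2.99% upwards, and at an unadjusted p under 0.05 there were 14 lower (10.2% of all genes) and 1 higher (13.5%). Ifit1 was not tested, being well above background on 1 of these 6 arrays. Markers of other cell types and glands also differed in the same comparison. Below sham without overlap lay 6 of 7 leukocyte genes and 4 of 7 macrophage genes. An adjusted p under 0.05 was reached by 2 leukocyte, 1 macrophage, 2 of 4 T and NK cell and 1 of 6 smooth muscle genes. It was also reached by 1 of 6 fibroblast, 1 of 3 endothelial, 1 of 3 striated muscle, 4 of 6 prostate secretory and 3 of 5 seminal vesicle genes. All of these were lower. In the other direction, the epithelial keratin Krt8 rose by 0.75 (adjusted p 0.017, a call kept in 12 of 16 alternatives and lost with scan as a block and without BPH+ghrelin 1, BPH+ghrelin 2 or sham 3, at adjusted p-values of 0.060 to 0.20), and 4 of 6 fibroblast genes had higher values, with a list median of 0.15. Ptprc, the pan-leukocyte antigen CD45, fell by 0.78 (adjusted p 0.019), Coro1a, an actin regulator of leukocytes, by 0.88 (adjusted p 0.017) and Cd74 by 0.56 (adjusted p 0.041), calls that held in 11, 11 and 7 of 16 alternatives and were lost with scan as a block (adjusted p 0.20, 0.19 and 0.31). All 3 calls were lost without BPH+ghrelin 1, BPH+ghrelin 2 or sham 3, those of Coro1a and Cd74 also without BPH+ghrelin 3, and that of Cd74 without sham 1, with adjusted p-values of 0.052 to 0.16. Their part in the lower values was not tested.

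In this comparison Usp18 had the largest difference, -1.40 ± 0.42 (2.64-fold lower, adjusted p 0.087, limma), with a gap of 1.21 between the lowest sham and the highest BPH+ghrelin array. Ifit3 differed by -1.03 ± 0.29 (adjusted p 0.075; -0.62 with normexp), Ifitm3 by -0.93 ± 0.28 (adjusted p 0.088), Isg15 by -0.78 ± 0.28 (adjusted p 0.14), Ifit2 by -0.73 ± 0.22 (adjusted p 0.084), Oas1b by -0.68 ± 0.19 (adjusted p 0.076), Irf7 by -0.65 ± 0.28 (adjusted p 0.20) and Irgm by -0.64 ± 0.20 (adjusted p 0.091). Below sham without overlap, as 12.8% of all genes were, lay 2 of 2 genes of the Isg15 system, 2 of 2 Ifit genes tested, 4 of 7 GTPases, 4 of 10 effectors, 2 of 3 RNA sensors, 1 of 5 regulators, 1 of 4 oligoadenylate synthetases and 1 of 4 membrane factors. When only these 6 arrays were normalized and fitted, Ifit2, Ifit3, Irf7 and Usp18 passed, 4 of 37, where 2.33% of all genes were called lower. The adjusted p over 16 alternatives ran from 0.0055 to 0.39 for Usp18 and from 0.011 to 0.36 for Ifit3, with the lowest value from those 6 arrays. Calls also turned on single sham arrays: Ifi35 and Oas1b passed without sham 1, and Ifitm3 without sham 2 (adjusted p 0.0088, range over alternatives to 0.34), in fits that called 4.55% and 5.42% of all genes lower. Within the scan shared by sham 1 and 2 and BPH+ghrelin 2 and 3, 31 of 37 genes were lower with ghrelin, where 44.5% of all genes were, and 20 were lower without overlap, where 17.1% of all genes were. Their median was -0.35, against 0.05 over all genes.

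The spread within groups was then described. The median SD of the 38 genes was 0.30 over the BPH arrays, 0.12 over the BPH+ghrelin arrays and 0.27 over the sham arrays, against 0.17, 0.17 and 0.31 for all 20113 genes. In 29 of 37 genes, Ifit1 left out, BPH 1 was the highest and BPH 3 the lowest of the 3 BPH arrays, an arrangement that 36.1% of all genes showed. BPH 1 exceeded BPH 3 by at least 2-fold in 8 genes, where 3.93% of all genes did, led by Usp18 (1.93 on the log2 scale), Oas1a (1.70), Ifit3 (1.33), Irf7 (1.28), Dhx58 (1.27), Irf9 (1.23), Mx1 and Isg15 (1.07 each). BPH 1 lay above all sham arrays for 19 of 37 genes, Ifit1 left out, and BPH 3 below all sham arrays for 19, where 30.1% and 28.2% of all genes did so. The median deviation of the group from its mean over 9 arrays was 0.30 in BPH 1, 0.03 in BPH 2 and -0.24 in BPH 3, 0.10 to 0.15 in sham and -0.20 to -0.11 in BPH+ghrelin. The 3 BPH arrays had the same scan. Markers of other cell types and glands moved with this arrangement. Semg1, a seminal vesicle protein, had 14.53, 13.63 and 7.35 in BPH 1, 2 and 3, and Msmb, a prostate secretory protein, 12.80, 11.98 and 4.79, whereas the collagen gene Col1a1 had 10.60, 11.61 and 12.27. BPH 1 was highest and BPH 3 lowest for 4 of 5 seminal vesicle genes, 4 of 6 prostate secretory genes and 6 of 7 epithelial genes. The same held for 6 of 7 leukocyte, 4 of 7 macrophage, 4 of 6 T and NK cell, 3 of 3 neutrophil and 3 of 4 endothelial genes. It held for 1 of 3 plasmacytoid dendritic cell genes and 0 of 2 B and plasma cell genes. The reverse held for 4 of 6 smooth muscle, 4 of 6 fibroblast and 3 of 3 striated muscle genes, where 34.8% of all genes showed it. The part of tissue content in the spread between BPH arrays was not tested.

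The question whether the group follows Ifit1 was put to the 9 arrays as a description. Over them, Pearson's r with Ifit1 had a median of 0.11 in 37 genes and ranged from -0.72 (Irf8) to 0.57 (Bst2), against a median of 0.04 for all 20112 genes. None of the 37 reached 0.8, which 457 of all genes (2.27%) did. After Bst2 came Irgm (0.55, Spearman's rho 0.58), Oasl2 (0.53) and Gbp2 (0.49), while Ifit3 had 0.29 and Ifit2 0.20, and Ifi35 (-0.61) and Mx2 (-0.54) stood with Irf8 at the low end. The named genes most like Ifit1 were Leprotl1 (0.99), Tmsb4x (0.99), Lta4h (0.97), Araf (0.96) and Zfp180 (0.96), none of which belongs to the group. The 9 values fall into 3 groups, and Ifit1 was above background on 4 of them, so these coefficients mostly compare group means. With group means taken away, the median r of the 37 genes was 0.29, against -0.05 over all genes, with Irgm at 0.83, Isg15 at 0.74, Oas1a and Dhx58 at 0.68 each, Irf9 at 0.65 and Ifih1 at 0.62, and Irf8 lowest at -0.69. These values share the 9 arrays, and Ifit1 was well above background on 4 of them.

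**Figure D4:**
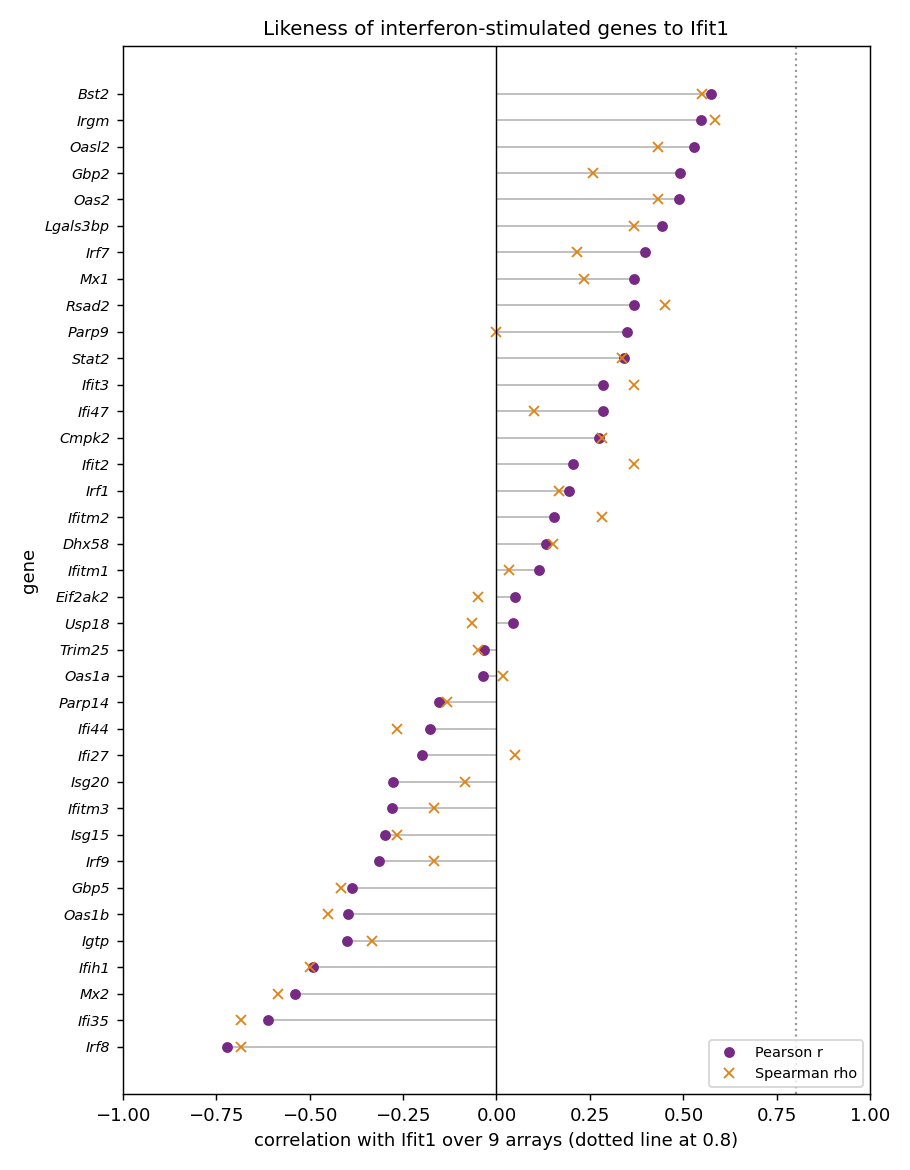
Pearson's r (purple points) and Spearman's rho (orange crosses) of 37 genes with Ifit1 over 9 arrays (x axis), ordered by r (genes on the y axis); the dotted line marks 0.8. Points spread on both sides of 0 between -0.72 and 0.57, and none reaches the dotted line.

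The rest of the interferon pathway was described from lists. Of 12 interferon genes listed, 5 had a probe, and Ifng was below background on all 9 arrays and Ifnb1 above it on 2. Ifna4, the 1 interferon tested, was above background on all 9 arrays, at log2 levels of 6.68 to 7.79, and differed by 0.55 between BPH+ghrelin and BPH (adjusted p 0.26, limma). Among receptors and kinases, none of 8 tested genes was called in any comparison at an adjusted p under 0.05, and 5 of 8 lay lower with ghrelin than in BPH without overlap, where 19.3% of all genes did. Ifngr1, the ligand-binding chain of the interferon-gamma receptor, had 11.53, 11.47 and 11.48 in sham, 12.74, 12.22 and 11.12 in BPH, and 10.73, 10.68 and 10.58 in BPH+ghrelin prostates. Its arrays were arranged like those of Irf7, with a ghrelin difference from BPH of -1.36 ± 0.35 (adjusted p 0.093).

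Downstream and regulatory genes gave 3 calls over the comparisons. Zc3hav1, an antiviral RNA-binding protein, rose in BPH against sham by 1.21 ± 0.26 (adjusted p 0.045, limma), the 1 call among 11 sensors and adapters tested. Over all genes, 2.16% were called higher in BPH. B2m, the light chain of MHC class I, had 15.37, 14.63 and 15.19 in sham, 14.27, 14.01 and 13.47 in BPH, and 13.31, 13.33 and 13.36 in BPH+ghrelin prostates. It fell against sham by 1.15 in BPH (adjusted p 0.044) and by 1.73 in BPH+ghrelin (adjusted p 0.0090), the 1 gene called of 13 chemokines and antigen processing genes. Of all genes, 2.18% were called lower than sham in BPH and 3.3% in BPH+ghrelin. Of 16 alternatives, Zc3hav1 passed in 8, B2m in 9 for BPH and in 15 for BPH+ghrelin, and with scan as a block the adjusted p-values were 0.71, 0.80 and 0.15. Both calls in BPH were lost without BPH 2, BPH 3 or sham 3, where the adjusted p was 0.10 to 0.17. With the replicate number as a block both were lost too (adjusted p 0.074 for Zc3hav1 and 0.082 for B2m). That of Zc3hav1 was also lost without BPH 1 (adjusted p 0.083), and its difference was 0.48 with normexp background correction. No call was made among 9 tested genes of a list headed inhibitors of the pathway. Without overlap, 4 were higher in BPH+ghrelin than in BPH (Socs3, Ptpn6, Irf2bp1 and Isg20l2) and 2 lower (Pias1 and Trim21). Over all genes these shares were 19.8% and 19.3%. Whether each listed gene restrains the pathway in this tissue was not tested.

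Markers of leukocytes also differed between BPH+ghrelin and BPH. Of 7 leukocyte genes, 5 lay lower with ghrelin than in BPH without overlap, against the same 19.3% of all genes. Ptprc was called, falling by 0.82 (adjusted p 0.037, limma), where 0.987% of all genes were called lower. Summed leukocyte signal was 9819 to 13867 in sham, 12362 to 12491 in BPH and 9118 to 10166 in BPH+ghrelin prostates. This sum rests largely on Lcp1, the brightest gene of the list (log2 12.35 to 12.98), whose BPH+ghrelin and BPH arrays overlapped. Of 7 macrophage genes, 4 were lower without overlap, again against 19.3%, and 2 were called lower, Mrc1 and Cd74, against the same 0.987%. The summed signal of the list was 6802 to 10625 in sham, 11007 to 16172 in BPH and 6313 to 8893 in BPH+ghrelin. It rests largely on Cd14, by far the brightest gene of the list (log2 12.22 to 13.74), and is no measure of macrophage content. Csf1r went the other way, with 0.32 for BPH+ghrelin minus BPH and -0.58 for BPH minus sham. Summed signal of T and NK cell genes was 436 to 471, 331 to 401 and 278 to 315. Of these genes, Cd3d, Cd3g and Nkg7 were above background on all 9 arrays and Lck on 8. Cd2 and Cd4 were above it on 3 arrays, and Cd3e, Cd8a and Ncr1 on at most 2. Over the same 16 alternatives Ptprc passed in 8, Mrc1 in 8 and Cd74 in 9, with adjusted p-values of 0.28, 0.23 and 0.23 when scan was a block. Each of these 3 calls was lost without BPH 1, BPH 2 or any 1 of the BPH+ghrelin arrays (adjusted p 0.052 to 0.20). All 3 were also lost with the replicate number as a block (adjusted p 0.099, 0.092 and 0.063), and Mrc1 differed by -0.26 with normexp. The part of leukocytes in the lower values of the interferon-stimulated genes was not tested, and in whole tissue fewer cells of a type and less RNA per cell cannot be told apart.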

How the data were processed

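The 9 arrays had been labelled with Cy3 and scanned, and the authors deposited the scanner software's intensities for each array, after background subtraction, as linear values without scaling across arrays. The authors also deposited a matrix of log2 values, quantile normalized with GeneSpring GX, which was used only as an alternative. Outlier spots were removed and spots of a probe averaged, and log2 of the processed intensities was quantile normalized over 30356 probes. Through their accessions 17990 probes received a symbol from RefSeq (GRCr8), an assembly used for names and promoters only. Probes had to be well above background on 3 or more of the 6 arrays in a comparison. Groups, taken from the sample labels, were compared with limma 3.58.1 in R 4.3.3 (lmFit and eBayes, 3 groups, 9 arrays) with Benjamini-Hochberg adjustment over all genes tested, and scripts were tested on simulated data. With 3 arrays per group, the smallest two-sided p of an exact permutation test is 0.1. The number of arrays limits the precision.

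Named genes were Ifit1, those with an adjusted p under 0.05, and up to 5 higher and 5 lower per comparison with the largest difference without overlap. Irf1, Usp18 against BPH and the other genes given with values outside this rule were chosen after their values were seen. The members and the lists of pathway and cell type genes were chosen with earlier results of these data known. The alternatives were another scaling, background correction, dim-probe filter, sample set, probe summary, block, value table or eBayes setting, and each array left out in turn. Normexp used median signals (offset 50).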

Additional observations from a re-analysis of the deposited data

How the results depend on the processing

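Of 96 recomputed medians and counts of called genes, 78 kept their value within the spread between arrays or within 1.5 times, 6 of them medians that a balanced block or another eBayes setting cannot move, and among the named genes 0 turned direction and 16 results passed the threshold that they had missed. For BPH against sham, 1 gene (Ifi35) was called with the filter on all 6 arrays, with the matrix of the authors and with trend and robust eBayes (6.55%, 5.29% and 4.77% of all genes called), and the arrays left out in turn gave 0 to 1 called genes and medians of -0.17 to 0.14. Ifit1, which has no test, had 0.47 with normexp, 2.18 with scan as a block and 2.49 in the matrix. For BPH+ghrelin against BPH, 1 gene was called with scaling to the 75th percentile (Irgm), with normexp (Isg20) and with the 6 arrays compared alone (Irgm), where 2.62%, 2.03% and 10.7% of all genes were called, and 0 to 5 with arrays left out, where medians ran from -0.40 to -0.06. Ifit1 had -0.37 with normexp and -1.57 with scan as a block. For BPH+ghrelin against sham, the median was -0.24 with normexp, -0.33 in the matrix and -0.37 to -0.28 with arrays left out, and the genes called were 2 with normexp (Isg20 and Oas1b), 4 with the 6 arrays alone (6.4% and 4.7% of all genes called) and 0 to 2 with arrays left out. Scaling to the 75th percentile moved the median of all genes in BPH against sham from 0.04 to -0.09, with the 38 genes at -0.14. Counts over all genes, 849, 293 and 1207 as reported, ran from 2 to 3069, 2 to 2106 and 85 to 1927 over the alternatives. With scan as a block, 2, 2 and 85 of all genes were called, and 0 of the interferon-stimulated genes. The calls of Zc3hav1, B2m, Ptprc, Coro1a, Mrc1, Cd74 and Krt8 were recomputed after seeing the data. The cause of these shifts was not tested.

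Arrays with the same replicate number had deviations from the group means that correlated at -0.14 to 0.26, and whether they are paired was not tested. With the replicate block, which is balanced and leaves differences of means (medians -0.05, -0.22 and -0.37) as they are by construction, 0 of the interferon-stimulated genes were called, and 242, 20 and 462 of all genes were called, fewer than without it. Signal over background limits Ifit1, Oas2, Oasl and Irf8, which were well above background on 4, 8, 1 and 7 of 9 arrays.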
